A study of Zea mays with 6 samples.

Results

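Clustered KN1 regions are the places in the maize genome where peaks of KNOTTED1 (KN1) called in both tassel and ear lay close together. Peaks of 3 anti-KN1 chromatin immunoprecipitation (ChIP) lists were merged wherever they shared at least 1 bp, which gave 44066 regions. Those on chromosomes 1 to 10 with a peak of tassel replicate 2 and a peak of the ear were called shared, whether or not tassel replicate 1 had a peak there. A shared region was called clustered when another shared region lay at most 10 kb away, edge to edge, and isolated otherwise. The 3345 shared regions comprised 645 clustered ones in 304 clusters and 2700 isolated ones. Peak calls and positions in tassel replicate 2 and ear chose the regions, so the values of those lists are given as descriptions with no test.

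The study profiled young inflorescences of field-grown B73, an inbred line. Its 6 samples are anti-KN1 ChIP of 2 tassel samples and 1 ear sample, each made from dissected primordia, and the input DNA of each. No mutant or treatment is named, and the inputs were not analysed here. What is called tassel replicate 2 is the sample whose title names tassels 2 and 3. It may pool several tassels and is treated here as 1 list. Fixation was the same throughout (1% formaldehyde, 10 minutes). Fragments averaged about 400 bp in tassel and about 100 bp in ear chromatin, and ear libraries alone were size-selected on a gel (150 to 350 bp) after 18 PCR cycles. Tissue and library preparation therefore cannot be told apart between the ear list and the tassel lists.

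KN1 is a homeodomain transcription factor of the KNOX family and is made in the meristems, the groups of dividing cells from which the tassel (male) and the ear (female) are built. It keeps meristem cells from differentiating. KNOX proteins act together with partners of the BELL family, and known targets in maize include a gene for a gibberellin-inactivating enzyme and genes of other hormone pathways. Several binding sites near each other can serve 1 gene or neighbouring genes. Which genes lie next to the clusters was not analysed here, because the sources used here do not give the genome build of the coordinates. For the same reason no sequence is printed.

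The lists differ in how well peaks stood apart from input. Peaks numbered 8876 in tassel replicate 1 (87317 tags), 14918 in replicate 2 (165023 tags) and 24737 in the ear list (226165 tags). A tag is a ChIP read assigned to a peak, and total library depth is unknown. The false discovery rate (FDR) that the authors deposited for each peak was 100% in 96.2% of all ear peaks, against 0 peaks of tassel replicate 2. Among clustered regions the best ear peak had an FDR of 100% in 521 of 645 (80.8%, 95% interval 77.6 to 83.6), where 80.2% of all shared regions did. An ear FDR of at most 20% was reached by 27 clustered regions (4.19%, 2.89 to 6.02), where 3.83% of all shared regions reached it. The FDR of tassel replicate 2 was at most 5% in 601 clustered regions (93.2%, 90.97 to 94.9), against 94.2% of all shared regions. Most clustered regions thus rest on tassel peaks of low FDR together with ear peaks that the FDR column does not separate from input. When all lists were held to an FDR of 20% or less, 128 shared regions were left and 0 were clustered. With a score of at least 100 in every list, 214 of 1843 shared regions were clustered.

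Most clusters were pairs. Of the 304 clusters, 272 held 2 regions, 27 held 3 and 5 held 4. Clusters spanned a median of 5308.5 bp (quartiles 3476 to 8149), with the longest at 18314 bp. The 341 gaps between neighbours inside clusters had a median of 2699 bp (quartiles 1198 to 5269, shortest 91 bp). Short gaps were the most frequent. There were 67 gaps under 1 kb and 68 between 1 and 2 kb, but 14 between 9 and 10 kb. Beyond the limit the number kept falling slowly, from 10.5 gaps per kb of distance at 10 to 20 kb to 5.60 at 40 to 50 kb. Across the limit itself the number changed little, from 14 in the last bin inside to 11 in the first outside.

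**Figure D1:**
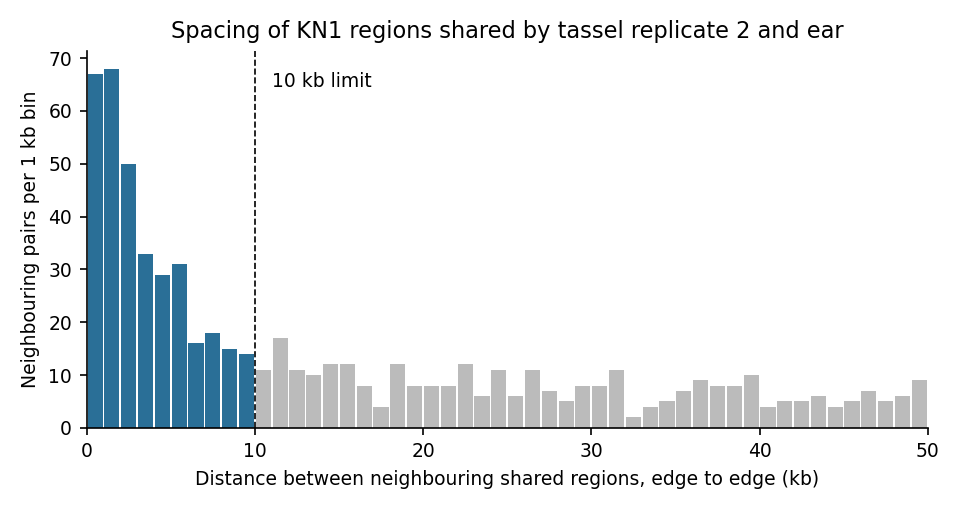
Number of neighbouring pairs of shared KN1 regions (y axis) by the distance between their edges in 1 kb bins (x axis, kb), with pairs inside the 10 kb limit in blue and wider ones in grey. Counts drop from 67 and 68 in the first bins to 14 in the last bin before the limit, and 11 pairs lie in the first bin after it.

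The regions at the edge of the definition were ordinary ones. The widest gaps still inside the limit were 9714 bp on chromosome 10 (between regions starting at 142775894 and 142786706), 9845 bp on chromosome 7 (159772918 and 159783507) and 9882 bp on chromosome 2 (2101427 and 2111972). These regions held 5 to 55 tags in tassel replicate 2 and 6 to 34 in the ear. The narrowest gaps outside it were 10053 bp and 10058 bp on chromosome 1 (214979675 and 214990809, and 298973026 and 298983668) and 10059 bp on chromosome 3 (4545516 and 4556337). Tags there ran from 5 to 20 in tassel replicate 2 and from 6 to 44 in the ear, so the ranges on either side of the limit overlapped. The region starting at 298973026 was itself clustered, through another shared region 8640 bp to its left. The 2 sides thus compare gaps, not clustered with isolated regions.

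Shared regions had near neighbours of their own kind as often as regions of tassel replicate 2 alone, which were denser along the chromosomes. The rule placed 645 of 3345 shared regions (19.3%) within 10 kb of another, at a density of 1.63 regions per Mb. Regions called in tassel replicate 2 alone stood at 5.49 per Mb, and 19.4% of the 11296 (18.6 to 20.1) had a neighbour of that class within 10 kb. For tassel replicate 1 alone the density was 3.83 per Mb and the share 12.7% (11.9 to 13.4) of 7889. Only the ear-only regions had more, with 35.4% (34.7 to 36.0) of 20786 at 10.1 per Mb. Gaps under 3 kb made up 54.3% of the gaps within the limit among shared regions, 49.7% among ear-only regions, and 38.0% and 35.0% in the classes of tassel replicate 2 and tassel replicate 1 alone. Regions shared by tassel replicate 1 and ear, or by both tassel replicates, were sparser (0.353 and 0.276 per Mb). Of these, 4.68% and 3.34% had a neighbour of their class within 10 kb. Gaps under 3 kb made up 41.2% of 17 gaps and 60% of 10 gaps there. No random level was computed for these shares.

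The 5 clusters of 4 regions show how tags were distributed among neighbours. The first lay on chromosome 8 from 162539909 to 162552948. From left to right its regions held 8, 18, 69 and 17 tags in tassel replicate 2, and 15, 57, 78 and 15 in the ear. Tassel replicate 1 had a peak only in the third region (162549372 to 162550376), with 22 tags. That region was the most tagged in all 3 lists, and its ear peak had an FDR of 7.81%.

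On chromosome 3, from 3470570 to 3480467, the tags were 6, 5, 12 and 34 in tassel replicate 2 and 28, 32, 17 and 71 in the ear. Tassel replicate 1 had peaks in the second region (10 tags) and in the fourth (5 tags). The fourth region, from 3479396 to 3480467, led in tassel replicate 2 and ear but not in tassel replicate 1. The cluster on chromosome 2 from 5505860 to 5517028 held 9, 8, 42 and 39 tags in tassel replicate 2 and 6, 12, 52 and 28 in the ear. Its right-hand regions, separated by 594 bp, carried most tags in both lists, and the last of them held 21 tags of tassel replicate 1.

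Elsewhere the balance differed between lists. On chromosome 1, from 52085915 to 52095852, tassel replicate 2 had 24, 11, 7 and 11 tags and the ear 36, 21, 38 and 13. The first region led in tassel replicate 2, whereas the third led in the ear by 2 tags over the first. On chromosome 3, from 230513974 to 230528018, tags were low throughout, with 18, 21, 6 and 13 in tassel replicate 2 and 4, 17, 7 and 16 in the ear. The ear FDR was 100% in all 4 regions of the latter cluster, and tassel replicate 1 had no peak in either cluster.

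**Figure D2:**
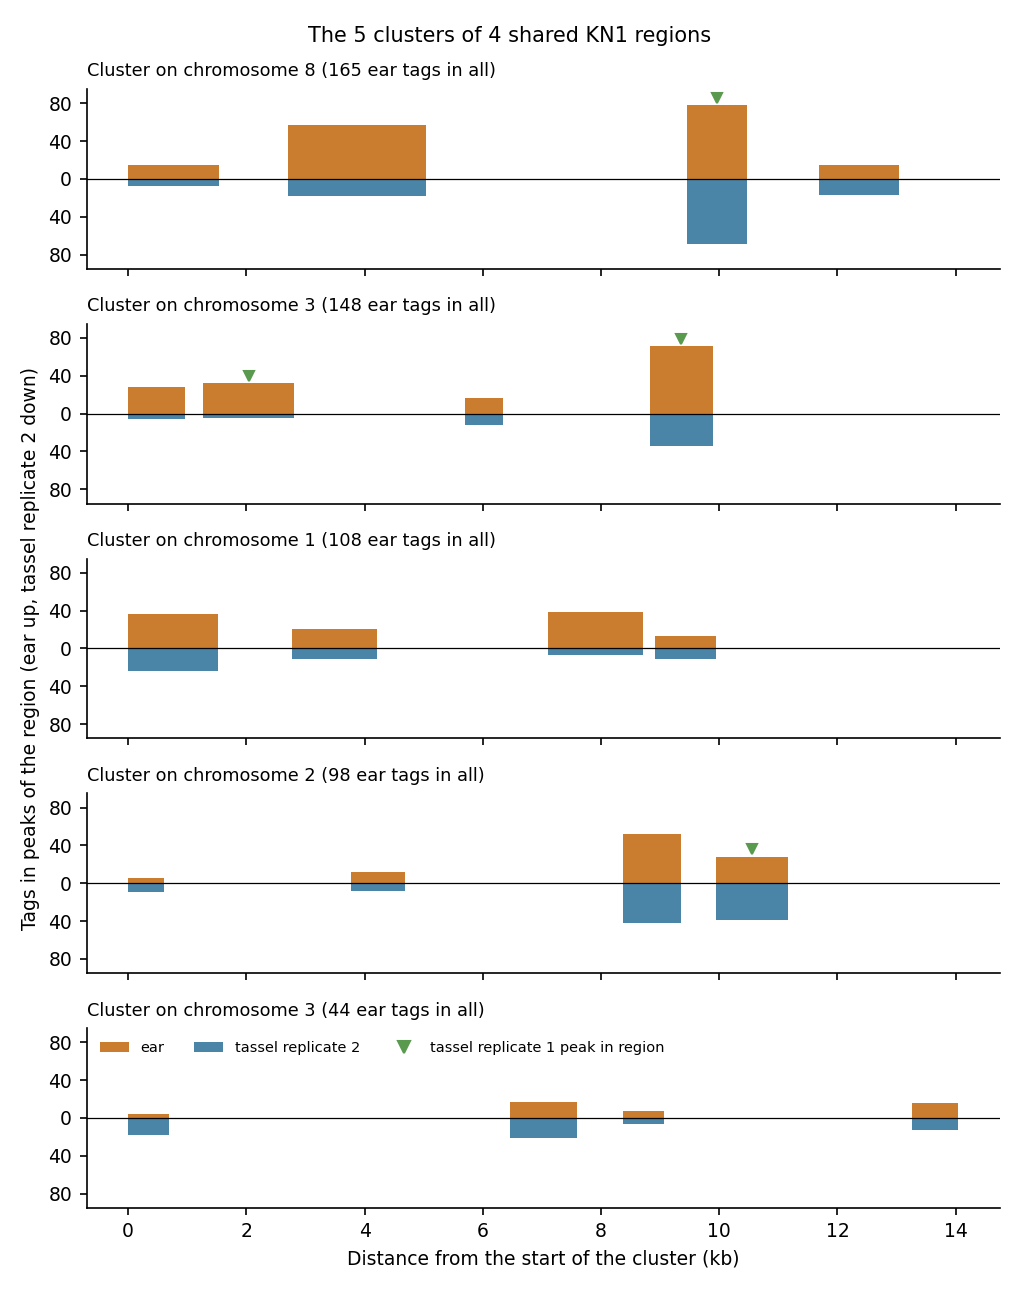
Tags in each region of the 5 clusters of 4 (y axis, ear upward in orange and tassel replicate 2 downward in blue) against distance from the cluster's start (x axis, kb), with bar width equal to region width and a green triangle over regions with a tassel replicate 1 peak. In 4 of the 5 clusters the same region holds the most tags in both lists, and on chromosome 1 from 52085915 it does not.

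The clusters of 3 with the most ear tags carried most of them in 1 region or spread them over all. On chromosome 1, from 202292485 to 202307948, the ear had 6, 21 and 117 tags and tassel replicate 2 had 14, 29 and 35, with 7 tags of tassel replicate 1 in the third region. The third region, 2699 bp wide, was the widest of all clustered regions, and its ear FDR was 7.35%. On chromosome 2, from 60872860 to 60880985, the middle region led with 82 tags in tassel replicate 2 and 79 in the ear. Its neighbours held 20 and 8 tags in tassel replicate 2 and 57 and 27 in the ear, and the left one held 11 of tassel replicate 1.

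The remaining clusters of 3 in this ranking had no tassel replicate 1 peak. On chromosome 3, from 188663554 to 188673555, the ear held 68, 16 and 38 tags and tassel replicate 2 held 16, 9 and 15. On chromosome 1, from 77140996 to 77147086, tassel replicate 2 held 43, 9 and 32 tags and the ear 56, 34 and 22. On chromosome 9, from 145058160 to 145067263, the ear held 9, 70 and 16 tags and tassel replicate 2 held 13, 22 and 8. In each of these 3 clusters the same region led in both lists.

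Clusters were also ordered by how high more than 1 of their regions scored in both lists. Regions were ranked by score within each list, and each cluster was judged by the worse of the tassel replicate 2 and ear ranks of its second best region. The best value was 2470, for the cluster on chromosome 2 from 12244141 to 12255745, where tassel replicate 2 had 13 and 41 tags and the ear 20 and 52. The clusters from 202292485 on chromosome 1 and from 5505860 on chromosome 2, described above, followed at 2500 and 2660. Next came chromosome 6 from 27500692 to 27504711, where tassel replicate 2 had 63 and 12 tags, the ear 67 and 31, and tassel replicate 1 had 41 in the left region. The fifth lay on chromosome 2 from 199168405 to 199173062, where tassel replicate 2 had 18 and 19 tags and the ear 31 and 17. By this measure no cluster had 2 regions ranked better than 2470th in both lists.

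Regions of one cluster differed widely in tags. In the 272 clusters of 2 regions, the richer region held a median of 2.15 times the tags of the poorer one in the ear (quartiles 1.40 to 3.36) and 1.85 times in tassel replicate 2 (1.37 to 3.00). Ear tags differed at least 2-fold in 145 of these clusters (53.3%, 47.4 to 59.2). Among 315 pairs of neighbouring shared regions 10 to 50 kb apart, ear tags differed at least 2-fold in 50.5% (44.98 to 55.96), and the medians were 2 in the ear and 1.72 in tassel replicate 2. In tassel replicate 2, tags differed at least 2-fold in 48.2% (42.3 to 54.1) of the clusters of 2 and 41.9% (36.6 to 47.4) of those wider pairs. The intervals overlapped in both lists, and whether close neighbours were more or less alike than wider pairs was not tested. Across the 272 clusters, Pearson's r between the log2 tags of the left and right region was 0.06 in the ear and 0.05 in tassel replicate 2.

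Some strong peaks had a weak neighbour beside them. These examples were chosen after their values were seen. The region with the best scoring ear peak of any cluster, on chromosome 7 from 175557821 to 175560036, held 158 tags over its ear peaks and 53 of tassel replicate 2. The region 1009 bp to its left held 9 and 5. On chromosome 4 the region from 156340971 to 156342529 had 266 and 276 tags in the tassel lists and 74 in the ear. Its neighbour 975 bp to the right had none in tassel replicate 1, 7 in replicate 2 and 13 in the ear. The cluster with the most tassel replicate 2 tags, on chromosome 3 from 54468360 to 54473383, was rich in both its regions in that list, with 134 and 279 tags. Its ear peaks held 11 and 27 tags, and tassel replicate 1 had no peak there.

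The richer region of a cluster was more often than not the same in tassel replicate 2 and ear. Leaving out 16 clusters with tied tags, the most tagged region was the same in tassel replicate 2 and ear in 179 of 288 clusters (62.2%, 56.4 to 67.6). Clusters of 2 alone had 159 of 258 (61.6%, 55.6 to 67.3), and clusters of 3 or 4 had 20 of 30 (66.7%, 48.8 to 80.8). In clusters of 2 whose ear tags differed at least 2-fold it was the same in 97 of 142 (68.3%, 60.3 to 75.4). Among those with a smaller difference it was the same in 62 of 116 (53.4%, 44.4 to 62.3), an interval that includes an even split. At an ear difference of at least 4-fold it was the same in 34 of 44 (77.3%, 63.0 to 87.2). Over all 272 clusters of 2, the log2 ratio of right to left tags had a Pearson's r of 0.38 and a Spearman's rho of 0.36 between ear and tassel replicate 2. Agreement in tags was not particular to clusters. Over single regions, Pearson's r between the log2 tags of tassel replicate 2 and ear was 0.42 in clustered and 0.37 in isolated regions. All these values come from 2 lists only, and their tags are small counts.

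**Figure D3:**
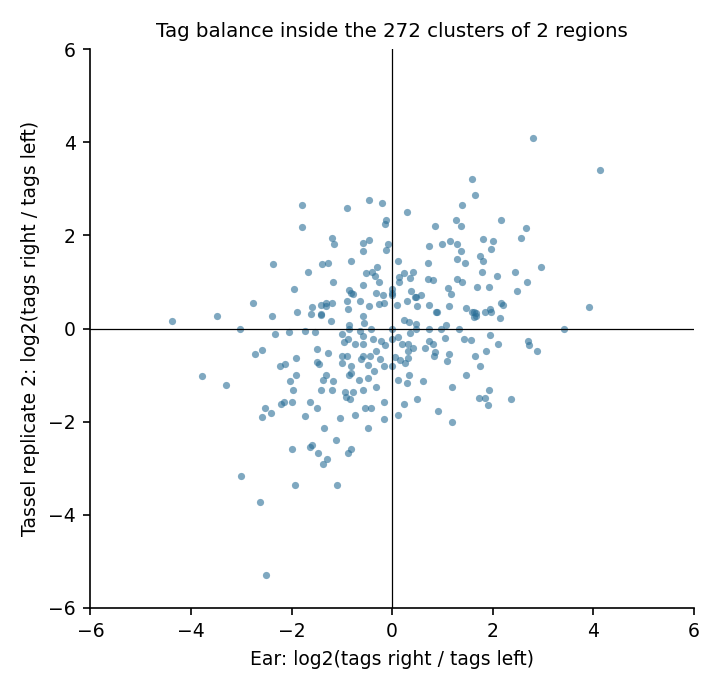
Tag balance in the 272 clusters of 2 regions, as log2 of right over left tags in tassel replicate 2 (y axis) against the same in the ear (x axis), with 1 point per cluster. Points at the upper right and lower left have the same richer region in both lists, and 99 points lie at the upper left or lower right.

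Of the 258 clusters of 2 without tied tags, the richer region was the same in 159 and the opposite one in 99. In 17 of these 99 the tags differed at least 2-fold in each list. The matching number among the 159 was not computed, so the 17 are not read as a frequent pattern. The 3 with the largest opposite ratios were looked up after the values were seen. On chromosome 5, from 7518190 to 7528008, the left region held 9 tassel replicate 2 and 66 ear tags and the right one 41 and 19. On chromosome 9 from 23522241 to 23531048 the left region held 4 and 62 tags in the same order, and the right one 25 and 18. On chromosome 6 from 89121783 to 89128559 they were 22 and 8 on the left and 7 and 30 on the right. Tassel replicate 2 and ear differ in library preparation and in FDR, and the part of these in the opposite balance was not tested.

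Tassel replicate 1, whose peaks entered the merging but were not required of a region, had a peak in 54 of the 645 clustered regions (8.37%, 6.47 to 10.8), where 9.87% of all shared regions had one. In isolated regions it had one in 276 of 2700 (10.2%, 9.14 to 11.4), so the intervals overlapped. At a score of at least 100 the order turned, with 11.7% (8.04 to 16.7) in clustered and 11.5% (10.02 to 13.1) in isolated regions. Among regions with a tassel replicate 2 peak wider than 500 bp, the smallest width in that list, the share was 9.63% (7.12 to 12.9) in clustered and 13.8% (12.1 to 15.6) in isolated ones. It was 10.4% (6.33 to 16.8) in clustered regions under 1 kb from a neighbour, 10.3% (6.94 to 14.9) at 1 to 3 kb and 5.92% (3.73 to 9.28) at 3 to 10 kb, with overlapping intervals. Tassel replicate 1 had an FDR of 100% in 41.8% of its peaks, and the part of this in these shares was not tested.

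Where tassel replicate 1 had a peak, it usually had it in only 1 region of a cluster. At least 1 region was called in it in 52 clusters (17.1%), and more than 1 in 2 of these. Only 8.37% of clustered and 9.87% of all shared regions had such a peak. No random level was computed for these counts, so they are not read as a trait of clusters. The only cluster called in it throughout lay on chromosome 2 from 202416955 to 202421336. Its left region had 29, 16 and 11 tags in tassel replicate 1, replicate 2 and ear, and its right region 36, 11 and 24. The other was the cluster on chromosome 3 from 3470570, described above. Clustered regions with a tassel replicate 1 peak held a median of 25 ear tags (interval of the median 20 to 33), against 18 (16 to 19) in those without one. They were also wider, with a median of 1112 bp (1045 to 1286) against 928 bp (882 to 973). Isolated regions were not split in this way, so the difference is not read as a trait of clusters.

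Clustered regions were wider than isolated ones but scored no higher in the tassel. A tassel replicate 2 peak wider than 500 bp was present in 405 (62.8%, 58.995 to 66.4) of the clustered regions and in 55.4% (53.6 to 57.3) of the isolated ones, where 56.9% of all shared regions had one. The median region was 960 bp wide (911 to 994) when clustered and 861 bp (847 to 879) when isolated. The median ear tags were 18 (16 to 20) and 15 (15 to 16), and the median tassel replicate 2 tags 11 (10 to 12) and 10 (10 to 11). The score, which is minus 10 × log10 of the peak caller's p-value, went the other way in tassel replicate 2, with a median of 208.1 (195.9 to 229.6) in clustered and 234.7 (229.6 to 239.1) in isolated regions. These intervals met at 229.6. In the outermost 20% at each chromosome end the medians were 205.9 (191.8 to 225.8) and 234.1 (214.9 to 239.1). Further in they were 225.8 (195.9 to 267.9) and 234.7 (232.7 to 252.6), so the score intervals overlapped in both parts. Enrichment over local background was 89.4-fold (71.7 to 92.5) and 112-fold (100.8 to 112) in that list. Its intervals overlapped near the ends (74.7 to 100.8 and 89.6 to 112). In the ear the median score of all clustered regions was 142.6 (131.9 to 155.4) and of isolated ones 128.6 (122.9 to 134.8). All of these are values of the lists that chose the regions. At a score of at least 100 the shares with a wide tassel replicate 2 peak had overlapping intervals.

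Within the clustered regions, the width of the tassel replicate 2 peak went with the tags of both lists. Regions with a peak of exactly 500 bp had a median of 7 tassel replicate 2 tags and 12 ear tags (11 to 13), against 15 and 23 (21 to 26) where it was wider. Isolated regions were alike in this, with 7 and 10 (10 to 11) against 15 and 22 (21 to 23). In tassel replicate 2, width and tags are values of the same peaks and so are not independent. Cluster size and spacing made less difference. The median ear tags were 18 in clusters of 2 and 20 in larger clusters (16 to 20 and 16 to 22), and 18, 18.5 and 18 from the closest to the widest of the 3 classes of spacing. Summits of the best tassel replicate 2 and ear peaks lay a median of 166 bp apart in clustered regions (153 to 180) and 147 bp in isolated ones (139 to 155).

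Clusters also held peaks of single lists. In 104 of the 304 clusters at least 1 further region lay between the members. Of such regions 95 were ear-only, 33 belonged to tassel replicate 2 alone and 9 to replicate 1 alone. Any others held peaks of tassel replicate 1 and 1 further list. Over the 10 chromosomes these single-list classes numbered 20786, 11296 and 7889, in the same order. No random level was computed, so the counts are not read as a trait of clusters. An ear-only region lay within 10 kb of 372 clustered regions (57.7%, 53.8 to 61.4) and of 45.8% (43.9 to 47.7) of isolated ones, where 48.1% of all shared regions had one. For regions of tassel replicate 2 alone the shares were 27.4% (24.1 to 31.0) and 24.3% (22.8 to 26.0), with 24.9% over all shared regions. For tassel replicate 1 alone they were 15.5% (12.9 to 18.5) and 13.9% (12.6 to 15.2), with 14.2% over all. The intervals of clustered and isolated regions lay apart for the ear-only regions and overlapped for the tassel lists. In the outer parts of the chromosomes the ear-only shares were 63.5% (58.98 to 67.7) and 49.9% (47.4 to 52.3), and in the inner parts 43.2% (36.3 to 50.4) and 40.04% (37.2 to 42.9), where the intervals overlapped. Members of one cluster can share such a neighbour, which makes the intervals too narrow.

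**Figure D4:**
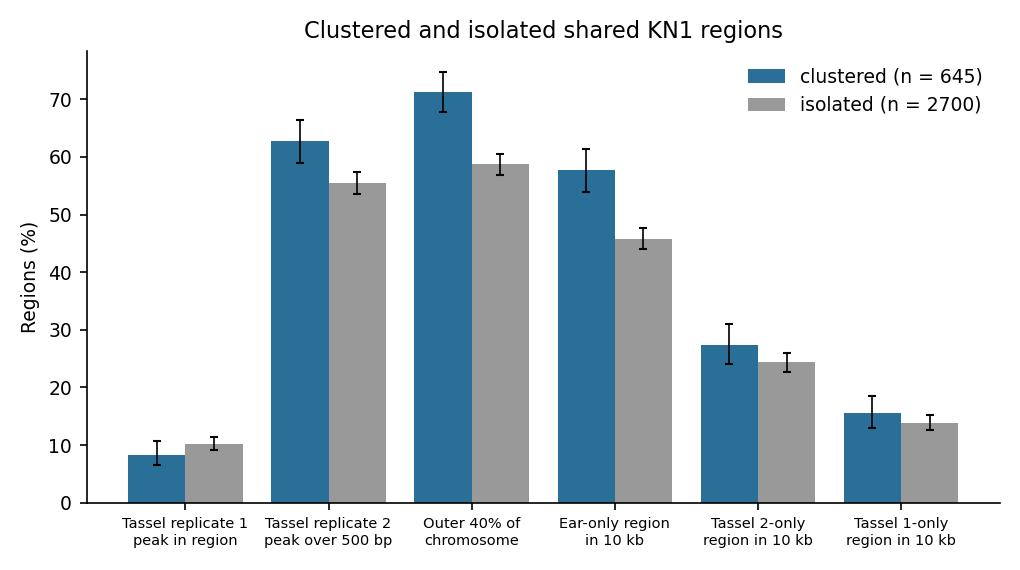
Percentage (y axis) of the 645 clustered and 2700 isolated shared regions with each feature on the x axis, with bars from 0 and 95% Wilson intervals that cover counting error over regions only. The intervals lie apart for wide tassel replicate 2 peaks, outer position and ear-only neighbours, and overlap for the other features. Peaks and positions in tassel replicate 2 and ear chose the regions, so this is a description and no test. Members of one cluster can share position and neighbours, which makes the intervals too narrow.

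Clusters lay mostly towards the chromosome ends. The outermost 20% at each end, together 40% of the length, held 460 of 645 clustered regions (71.3%, 67.7 to 74.7) and 58.7% (56.9 to 60.6) of isolated ones, where 61.2% of all shared regions lay there. The first and the last 10% alone held 22.0% and 27.9% of clustered regions, against 15.8% and 18.8% of isolated ones. The stretch from 40 to 50% of the length held 4 clustered regions. The share was above 59% on 9 of 10 chromosomes, from 59.8% on chromosome 1 to 86.7% on chromosome 10. Chromosome 4 was the exception, with 14 of its 48 clustered regions (29.2%) in the outer parts. At a score of at least 100 the outer shares were 66.4% (59.8 to 72.3) and 61.1% (58.7 to 63.4), with overlapping intervals. Members of one cluster lie close together and so share their position, which makes the intervals of clustered regions too narrow. Neighbours within a fixed distance are more frequent where regions are dense, and shared regions were denser near the ends, so clustering and density cannot be told apart here.

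**Figure D5:**
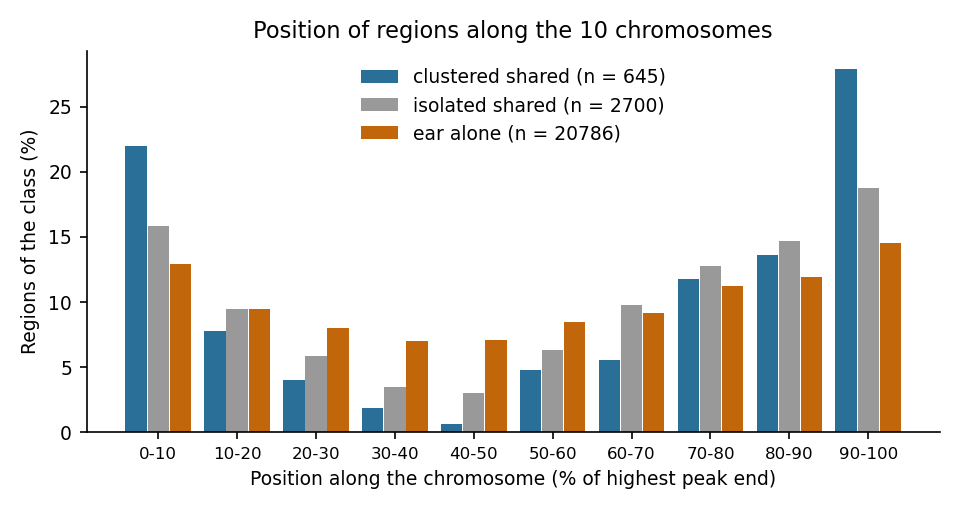
Percentage of regions (y axis) in each 10% of the chromosome (x axis, position as a percentage of the highest peak end), pooled over 10 chromosomes, for clustered shared, isolated shared and ear-only regions. Clustered regions reach 22.0% and 27.9% in the outermost bins and 0.62% in the bin from 40 to 50%.

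All 10 chromosomes carried clusters, from 16 on chromosome 9 to 45 on chromosome 2. The share of shared regions that were clustered ran from 14.1% on chromosome 9 (10.3 to 19.1) to 24.03% on chromosome 7 (19.4 to 29.3). The intervals of these chromosomes lay just apart, but they are the extremes of 10. Members of one cluster are counted together, which makes the intervals too narrow. Clusters per 10 Mb ran from 0.911 on chromosome 4 to 1.90 on chromosome 2. The 645 regions took 4.35% of the peaks and 6.07% of the tags in peaks of tassel replicate 2, and 2.73% of the peaks and 7.06% of the tags of the ear. In tassel replicate 1 they took 54 peaks (0.608%) and 1.08% of the tags.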

How the data were processed

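Reads were processed by the authors before deposit. Bowtie and CASAVA are named in the submitters' processing notes, and the peaks carry names that MACS writes. The sources used here do not give aligner settings, the MACS version or the genome build. Each ChIP sample has its own list, with input DNA as control per the labels. The lists have no header, and columns were read from their values. The deposited tag count is a whole number of ChIP tags per peak. The deposited score is minus 10 × log10 of the p-value and is never below 50. The deposited fold enrichment is a ratio to local background, and the deposited FDR is a percent.

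Merging, chaining and summaries used scipy 1.17.1, pandas 2.3.3 and numpy 2.4.6 in Python 3.11.15, and plots matplotlib 3.10.9. Tags were summed over a list's peaks in a region. Score, fold, FDR and summit are those of its best scoring peak, with ties ordered by tags. The highest peak end stood in for chromosome length. Shares carry 95% Wilson intervals and medians exact order-statistic intervals. Both cover counting error over regions only. Regions are not replicates and tags carry no molecular identifiers. With 1 ear list no difference between tissues can be tested, and no p-value is given. Depth is known only as tags in peaks, so tags are not compared between lists.

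The chaining code was tested on simulated data, and bedtools 2.31.1 gave the same numbers of regions and clusters on the real lists (difference 0). The regions and comparisons were chosen with earlier results of these data known. Named clusters were the 10 with the most regions (ties by ear tags), the 5 with the best second region by worst rank, those called throughout in tassel replicate 1, and the 3 gaps on each side of the limit. Alternatives were limits of 5 and 20 kb, an overlap of 50% of the shorter peak, a score of at least 100, an FDR of at most 20%, and leaving out either tassel list.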

Additional observations from a re-analysis of the deposited data

How the results depend on the processing

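Of 58 alternative values, 38 stayed within the interval of the reported one or, for a number of regions or clusters, within 1.5 times of it, and 20 moved. The 645 regions in 304 clusters became 214 in 102 with a score of at least 100, 0 in 0 with an FDR of at most 20% (128 shared regions were left), and 281 in 136 with only tassel replicate 2 peaks wider than 500 bp, an alternative chosen after the data were seen. Leaving out tassel replicate 1 kept the numbers at 645 and 304, and leaving out tassel replicate 2 gave 34 and 17, from 714 regions of tassel replicate 1 and ear. Fewer regions enter these settings. Limits of 5 and 20 kb gave 472 and 826 regions.

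The share of clustered regions with a tassel replicate 1 peak (8.37%) became 11.7% at a score of at least 100, with 11.5% in isolated regions, so their order turned there. Wide tassel replicate 2 peaks (62.8%) became 68.6% at an overlap of 50% and 72.0% at that score, where the interval (65.6 to 77.6) overlapped that of isolated regions (65.03 to 69.6). The outer share (71.3%) became 66.4% (59.8 to 72.3) at that score, overlapping 61.1% (58.7 to 63.4) in isolated regions. It stayed at 71.3% without tassel replicate 1. Without tassel replicate 2 it was 70.6% (53.8 to 83.2) in only 34 regions, overlapping 55.9% (52.1 to 59.6) in isolated ones. The shared most tagged region (62.2%) became 72.6% at that score. Median ear tags (18) became 27 at that score and 24 with wide peaks. They stayed at 18 without tassel replicate 1, and were 17 (9 to 24) in only 34 regions without tassel replicate 2. Median tassel replicate 2 tags (11) became 14 at that score and 15 with wide peaks. The summit distance (166 bp) became 148 bp at an overlap of 50%, 139.5 bp at that score and 138 bp with wide peaks. The cause of these moves was not tested. No other value could be had at an FDR of at most 20%. Values that need tassel replicate 2 could not be had without it.

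No paired analysis was possible because the results come from no test and the ear has 1 list. Low tag numbers limit all comparisons of regions, and the inputs were not analysed here.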

Other observations

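Clusters themselves lay close together in places. Within windows of 1 Mb, the most clusters were 4, with 8 regions, on chromosome 7 from 158938120 to 159851879. The next window held 3 clusters with 8 regions on chromosome 2 from 5069579 to 5517028, and it includes a cluster of 4. The longest cluster, on chromosome 10 from 127594098 to 127612411, held 4 ear-only regions between its 3 members, with 33 tassel replicate 2 and 39 ear tags in the members. The closest neighbours were on chromosome 3, where 91 bp separated a region with 104 ear tags (10283065 to 10284512) from one with 5 (10284604 to 10285736). Their tassel replicate 2 tags were 9 and 10. Whether such neighbours are separate sites or parts of one was not tested.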
